A study of Mus musculus with 2 samples.

Results

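Endocardial endothelial cells, the cells that line the heart chambers, were taken from droplet single-cell RNA counts of the infarct zone. A kept cell was a member when it passed the endothelial gates and had at least 2 unique molecular identifiers (UMIs, each 1 captured transcript) of Npr3, Nrg1, Sost and Bmx summed, and more of these than of the capillary genes Gpihbp1, Aplnr, Rbp7 and Prnd. This gave 774 members among 22084 kept cells. The GFPhi library held 124 members of 10125 kept cells, and the GFPlo library 650 of 11959. The gates asked for at least 2 of Pecam1, Cdh5, Egfl7, Emcn and Esam, and kept out cells rich in collagen or C1q transcripts and cells with 2 or more of the lymphatic genes Prox1, Mmrn1, Reln and Flt4.

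All cells came from p16-2A-CreER;R26-mTmG mice, in which a tamoxifen-activated Cre named for the p16 gene (Cdkn2a) can switch a reporter to membrane GFP. Every animal had surgical myocardial infarction, tamoxifen by gavage on day 5 and harvest on day 7, so both libraries carry both alleles, the injury and the drug. Non-cardiomyocytes of the infarct zone were sorted into a GFPhi fraction and a GFPlo fraction, which other label fields call GFP-positive and GFP-negative. Each fraction is 1 library, the number, sex and age of the mice are not given in the labels, and no uninjured or tamoxifen-free group is among the samples. There is therefore no replicate spread and no test. Where an interval is given it is an exact one at 95%, which allows for the error of counting and nothing else. The GFPhi library had 91343549 UMIs in 10430 barcodes and the GFPlo library 104855204 UMIs in 12344 barcodes. The libraries share 94 barcodes. No member barcode was a member in both, and 5 members carry a barcode that also occurs in the other library.

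As background, the endocardium is a continuous endothelial sheet between the blood in the chambers and the trabecular muscle. In development it sends neuregulin to the ErbB receptors of the muscle, gives rise to the valve cushions and contributes cells to the coronary vessels. In the adult mouse heart it is told apart from capillary endothelium by Npr3, the clearance receptor for natriuretic peptides, while capillaries carry the machinery for fatty acid uptake.

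The label was checked against other cell types first. The rule uses no mesothelial gene, and 10 of the 124 GFPhi members and 10 of the 650 GFPlo members had at least 20 UMIs of 12 mesothelial genes (Msln, Upk3b, Wt1, keratins and others) per 10000 UMIs. Mesothelium is the cell sheet on the outer surface of the heart. The 10 such GFPhi cells were large, with a median of 30372 UMIs, against 5350 in the other 114, and held 33.9% of all member UMIs of that library. In these 10 cells Msln stood at 1609 CPM (UMIs summed over cells and scaled by the total of those cells) and Upk3b at 1077 CPM, and Vwf, Emcn, Plvap and Sost had 0 UMIs. Msln and Upk3b are among the 12 genes that marked the cells, so their levels follow from that choice. Muc16, a mesothelial mucin outside the 12 genes, stood at 430 CPM. The 10 cells had entered through Npr3, with 36 UMIs over 10 cells, and in 10 of 10 cells through Esam. The 10 GFPlo cells had a median of 11944 UMIs and held 3.67% of member UMIs, with Msln at 1242 CPM but also 42 UMIs of Nrg1 and 22 of Emcn. The data thus go against the label for the GFPhi group of 10, and the results between libraries were computed with and without the marked cells. Leaving them out was chosen after the data were seen.

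**Figure D1:**
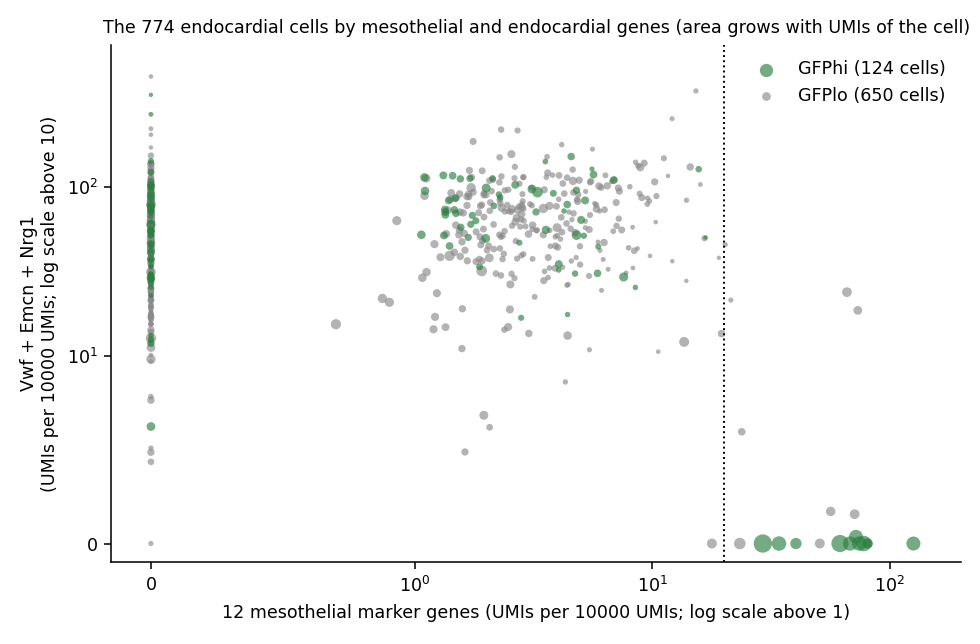
Each point is 1 of the 774 members, green for the 124 of GFPhi and grey for the 650 of GFPlo. The x axis is the sum of 12 mesothelial genes and the y axis the sum of Vwf, Emcn and Nrg1, both in UMIs per 10000 UMIs on log axes above 1 on x and 10 on y, and the area grows with the UMIs of the cell. The dotted line marks 20 mesothelial UMIs per 10000, and the 10 large GFPhi points to its right lie at or near 0 on the y axis.

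Among the remaining 114 GFPhi and 640 GFPlo members, marker lists of other cell types differed in level. The fibroblast list was at 5005 CPM in GFPhi and 7134 CPM in GFPlo members, with Tcf21, Dpt and Fmod at 0 UMIs in GFPhi. The macrophage list was at 5820 CPM in GFPhi and 3951 CPM in GFPlo members, with Adgre1 at 0 UMIs in GFPlo. It includes Apoe, which over all members was 6.34-fold in GFPhi and 23.1-fold in GFPlo above capillary cells. Of 13 genes of the list measured in that comparison, 1 was higher and 0 lower by the call rule below. C1qa, C1qb, C1qc and Lyz2 had 6, 6, 2 and 33 UMIs in GFPlo members. The sum is thus not read as macrophage transcripts alone. The fibroblast and macrophage lists were the highest in both libraries. The mesothelial list summed to 192 CPM in GFPhi and 180 CPM in GFPlo members. The neutrophil list had 0 UMIs in GFPhi members and 96.9 CPM in GFPlo members. Lymphatic Mmrn1 and Reln had 0 UMIs in GFPhi members, and that list summed to 151 and 191 CPM, though the gate itself limits it. The mural list was at 42.7 and 126 CPM and the lymphocyte list at 50.9 and 166 CPM. The part of such transcripts in the results was not tested.

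The genes of the rule describe the members and are not findings. Npr3, which removes natriuretic peptides from the blood, stood at 857 CPM in GFPhi members and 1106 CPM in GFPlo members, and at 1236 and 1142 CPM without the marked cells. Capillary cells, of which there were 80 in GFPhi and 137 in GFPlo, had 0 Npr3 UMIs in both libraries, under a floor of 2.82 and 3.27 CPM for 3 counts. Nrg1, a ligand of ErbB receptors, was the most abundant gene of the set, at 2449 CPM in GFPhi and 3098 CPM in GFPlo members, against 1.88 and 8.72 CPM in capillary cells. Sost, a secreted inhibitor of Wnt signalling best known from bone, stood at 220 and 339 CPM in members, with 0 UMIs in capillary cells. Bmx, a Tec-family tyrosine kinase of arteries and endocardium, stood at 375 and 373 CPM in members, against 4.70 and 17.4 CPM in capillary cells. Vwf, the platelet-binding factor that the rule did not use, stood at 696 and 762 CPM in members, against 40.4 and 117 CPM in capillary cells. The 5 genes were thus higher in members of each library than in its capillary cells.

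By share of cells, Npr3 was detected in 93.5% of GFPhi members (interval 87.7% to 97.2%) and 90.5% of GFPlo members. Sost was the least often seen, in 55.6% of GFPhi and 57.7% of GFPlo members. UMIs of these genes were also seen in other cell classes. Whether they came from free RNA, doublets or the cells themselves was not tested. The 7593 GFPhi macrophages had a median of 6886 UMIs per cell. Among them 3.28% had a Vwf UMI, 2.92% an Nrg1 UMI and 0.198% an Npr3 UMI. Among the 6950 GFPlo fibroblasts 12.04% had an Nrg1 UMI and 3.02% an Npr3 UMI at a median of 9239.5 UMIs, deeper than the members with their medians of 5654.5 in GFPhi and 3902.5 in GFPlo. The rule itself asked for UMIs of Npr3, Nrg1, Sost or Bmx in members, so their shares of these genes draw nothing from that comparison.

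Each rule gene was also read in cells chosen by the other 3 rule genes, a measure its own selection did not use. Npr3 was then detected in 98 of 106 GFPhi cells (92.5%, interval 85.7% to 96.7%) and 526 of 588 GFPlo cells (89.5%, 86.7% to 91.8%), against 1 of 81 and 0 of 137 capillary cells. Nrg1 was detected in 84.3% of GFPhi cells and 88.5% of GFPlo cells, and in 91.5% of GFPhi cells without the marked ones. Sost was detected in 55.6% and 57.4%, and Bmx in 73.1% and 62.0%. Bmx had the highest capillary share of the 4, at 7.41% in GFPhi and 10.2% in GFPlo.

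**Figure D2:**
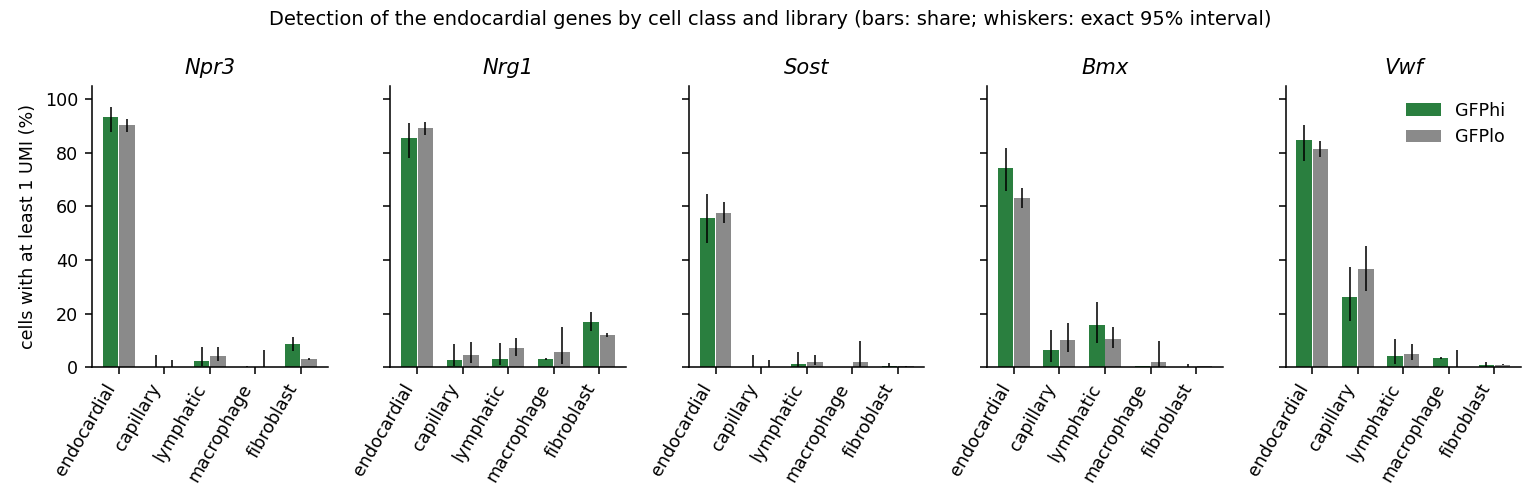
Bars give the share of cells with at least 1 UMI of Npr3, Nrg1, Sost, Bmx and Vwf in 5 cell classes of the GFPhi (green) and GFPlo (grey) libraries, with exact 95% intervals as whiskers. Npr3 reaches 93.5% and 90.5% in endocardial cells and 0 in capillary cells, and Nrg1 is seen in 12.04% of GFPlo fibroblasts.

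Members just inside and just outside the threshold were few. At exactly 2 UMIs of the 4 genes there were 12 GFPhi and 41 GFPlo members, and 10 GFPhi and 52 GFPlo cells with 1 UMI fell outside. Members had a median of 22 such UMIs in GFPhi and 17 in GFPlo, with ranges of 2 to 110 and 2 to 109. A capillary gene was seen in 1 GFPhi and 14 GFPlo members.

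In mm10, Npr3 occupies chr15:11839896-11907287, Nrg1 chr8:31814551-32884029, Sost chr11:101962458-101967015 and Bmx chrX:164192842-164258193, all on the minus strand. Vwf lies on the plus strand at chr6:125546774-125686679. The promoters of 3 endocardial rule genes and of Prnd, a capillary rule gene absent from members, are shown. They let the start regions of genes with opposite patterns be compared. The sequences come from RefSeq on GRCm38.p6 and run from 250 bases before to 50 after the listed start. Capitals mark matches on either strand. The motifs searched were those of GATA factors, spelled AGATAA and also with a first letter of T as TGATAA, of ETS factors, spelled as the letters CCGGAA, of forkhead factors, spelled as the letters TGTTTAC, and of the E-box, spelled as the letters CATCTG here. The GATA spellings share their last letters.
Npr3 promoter, chr15:11907322-11907621, minus strand: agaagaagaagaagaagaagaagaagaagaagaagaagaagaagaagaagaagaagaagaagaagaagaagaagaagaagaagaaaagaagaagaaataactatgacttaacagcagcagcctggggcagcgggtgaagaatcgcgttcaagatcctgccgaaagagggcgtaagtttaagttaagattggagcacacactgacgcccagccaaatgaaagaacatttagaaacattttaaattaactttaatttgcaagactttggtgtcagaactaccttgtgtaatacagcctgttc
Sost promoter, chr11:101966966-101967265, minus strand: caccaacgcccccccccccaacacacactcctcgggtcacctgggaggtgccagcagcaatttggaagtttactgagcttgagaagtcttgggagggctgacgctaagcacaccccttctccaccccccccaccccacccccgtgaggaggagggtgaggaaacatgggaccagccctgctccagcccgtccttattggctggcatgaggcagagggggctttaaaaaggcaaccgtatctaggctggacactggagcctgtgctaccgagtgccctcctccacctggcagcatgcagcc
Bmx promoter, chrX:164258144-164258443, minus strand: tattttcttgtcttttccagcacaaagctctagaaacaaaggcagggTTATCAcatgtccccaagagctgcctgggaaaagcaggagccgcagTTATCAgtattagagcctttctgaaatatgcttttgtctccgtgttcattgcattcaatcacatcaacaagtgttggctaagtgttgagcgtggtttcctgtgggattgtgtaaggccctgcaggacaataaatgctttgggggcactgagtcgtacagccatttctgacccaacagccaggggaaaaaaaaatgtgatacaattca
Prnd promoter, chr2:131950611-131950910, plus strand: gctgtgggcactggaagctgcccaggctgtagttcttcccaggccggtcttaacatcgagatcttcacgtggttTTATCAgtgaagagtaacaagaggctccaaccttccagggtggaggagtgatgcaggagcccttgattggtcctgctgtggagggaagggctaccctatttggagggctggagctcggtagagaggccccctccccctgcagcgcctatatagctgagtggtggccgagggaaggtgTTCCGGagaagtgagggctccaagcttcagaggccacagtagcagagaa

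These windows held 2 reverse-strand TGATAA matches for Bmx, 1 such match and 1 ETS match for Prnd, and 0 matches for Npr3 and Sost. Across genes, a GATA match was present for 14.0% of 278 matched genes higher in members than in capillary cells, 13.6% of 361 lower ones, 12.04% of 3340 measured genes and 21.0% of all 27025 genes in the table. An ETS match was present for 12.6% of the higher, 19.9% of the lower and 31.3% of the measured genes. Forkhead matches were at 3.24%, 2.49% and 3.02%, and E-box matches at 15.5%, 19.1% and 13.4%. A match is a string of letters, not a shown binding site.

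Members differed among themselves in how many rule genes they showed. Without the marked cells, 54 of 114 GFPhi members (47.4%) and 242 of 640 GFPlo members (37.8%) had UMIs of all 4, at medians of 5350 and 3860.5 UMIs per cell. A further 34.2% and 34.1% had 3 of them, and 3.51% and 7.66% had 1. Per cell, Nrg1 had a median of 27.1 UMIs per 10000 in GFPhi members, from 0 to 248, and of 24.0 in GFPlo members, from 0 to 419. Npr3 had medians of 11.3 and 10.2 UMIs per 10000. Emcn, a gate gene, was the most evenly spread, detected in 113 of 114 GFPhi and 98.1% of GFPlo members. Smoc1, a secreted calcium-binding protein, was detected in 71.9% and 71.2%.

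Bmx also marks arteries, so members with Bmx as their only rule gene were set apart. There was 1 such cell in GFPhi and there were 5 in GFPlo without the marked cells. The 5 GFPlo cells held 20 UMIs of Cxcl12, 8 of Stmn2, 4 of Sox17 and 3 of Sema3g in 18925 UMIs, all 4 on the arterial list, with 0 of Vwf and 0 of Smoc1. Of that list they had 0 of Gja5, Dll4, Jag1, Unc5b, Depp1 and Alpl, and 2 each of Gja4, Edn1 and Fbln5, which gives 106 CPM. They also had 11 UMIs of Mecom, 6 each of Efnb2 and Fbln2 and 1 of Hey1, also on the list. Cxcl12, Stmn2, Sox17 and Sema3g were singled out after their values were seen. The other 635 GFPlo members held 46 UMIs of Cxcl12, 9 of Stmn2, 8 of Sox17 and 4 of Sema3g in 2643921 UMIs, and had Gja4 at 890 CPM, Edn1 at 552 CPM and Fbln5 at 326 CPM. Tmem108 stood at 476 CPM in the 5 cells and 641 CPM in the 635, and Cdh11 at 264 and 647 CPM. Emcn stood at 845 and 2247 CPM and Plvap at 159 and 1895 CPM. The 1 GFPhi cell had 0 UMIs of Cxcl12, Sox17 and Sema3g, 1 of Stmn2 and 5 of Vwf. The members with Npr3, Nrg1 or Sost made up the other 635, and the rule without Bmx gave 110 GFPhi and 620 GFPlo members without the marked cells, and 119 and 629 with them.

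Compared with capillary cells of the same library, many genes were higher or lower in members. A gene was called when the nearer bound of its interval was past 1.5-fold in the same direction in both libraries, among genes with at least 50 CPM in 1 of the 4 sums and 20 UMIs in all. In this way 374 of 4239 measured genes (8.82%) were higher and 484 (11.4%) lower in members. Both classes were chosen by 8 of these genes, so the comparison describes the members and is not a test. The median log2 ratio of all measured genes was -0.08 in GFPhi and -0.04 in GFPlo. Leaving out the marked cells gave 387 higher and 501 lower, of which 335 and 429 were also called with them.

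The genes highest against capillary cells, after the rule genes, had varied roles. Smoc1 stood at 363 CPM in GFPhi and 582 CPM in GFPlo members, against 0 UMIs in GFPhi and 3 UMIs in GFPlo capillary cells. Tmem108 stood at 429 and 629 CPM in members, against 2.82 and 5.45 CPM. Chrm2, the muscarinic acetylcholine receptor best known for slowing the heart beat, stood at 161 and 279 CPM in members, with 0 and 1 UMIs in capillary cells. Cdh11, a mesenchymal cadherin, stood at 625 and 636 CPM in members, 74.0-fold (38.7 to 163) and 58.3-fold (31.6 to 122) above capillary cells. Spon1, a matrix protein, stood at 172 and 238 CPM in members, with 0 and 3 UMIs in capillary cells. Bex4 was at 177 and 206 CPM in members and 0 UMIs in capillary cells, at least 62.8-fold and 63.0-fold higher.

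Other leading genes encode enzymes, a proteolipid and a noncoding RNA. Ephx2, the soluble epoxide hydrolase that breaks down epoxy fatty acids, stood at 284 and 454 CPM in members, with 1 and 7 UMIs in capillary cells. Cyp1b1, a cytochrome P450 of steroid and fatty acid oxidation, stood at 92.3 and 138 CPM in members, with 0 UMIs in capillary cells, at least 32.8-fold and 42.2-fold higher. Pde3a, which degrades cyclic AMP, stood at 376 and 603 CPM, 80.0-fold (33.95 to 248) and 55.3-fold (30 to 116) above capillary cells. Mal, a membrane proteolipid, stood at 105.3 and 186 CPM and Sprr2a2 at 110 and 202 CPM, each with 0 UMIs in GFPhi and 2 UMIs in GFPlo capillary cells. Sprr2a2 has close copies in the genome, so its reads may be split among them. Hand2os1, the noncoding RNA beside the cardiac transcription factor gene Hand2, stood at 364 and 396 CPM in members, 96.8-fold above capillary cells in GFPhi and, over only 2 capillary UMIs, 182-fold in GFPlo (interval 50.2 to 1501).

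**Figure D3:**
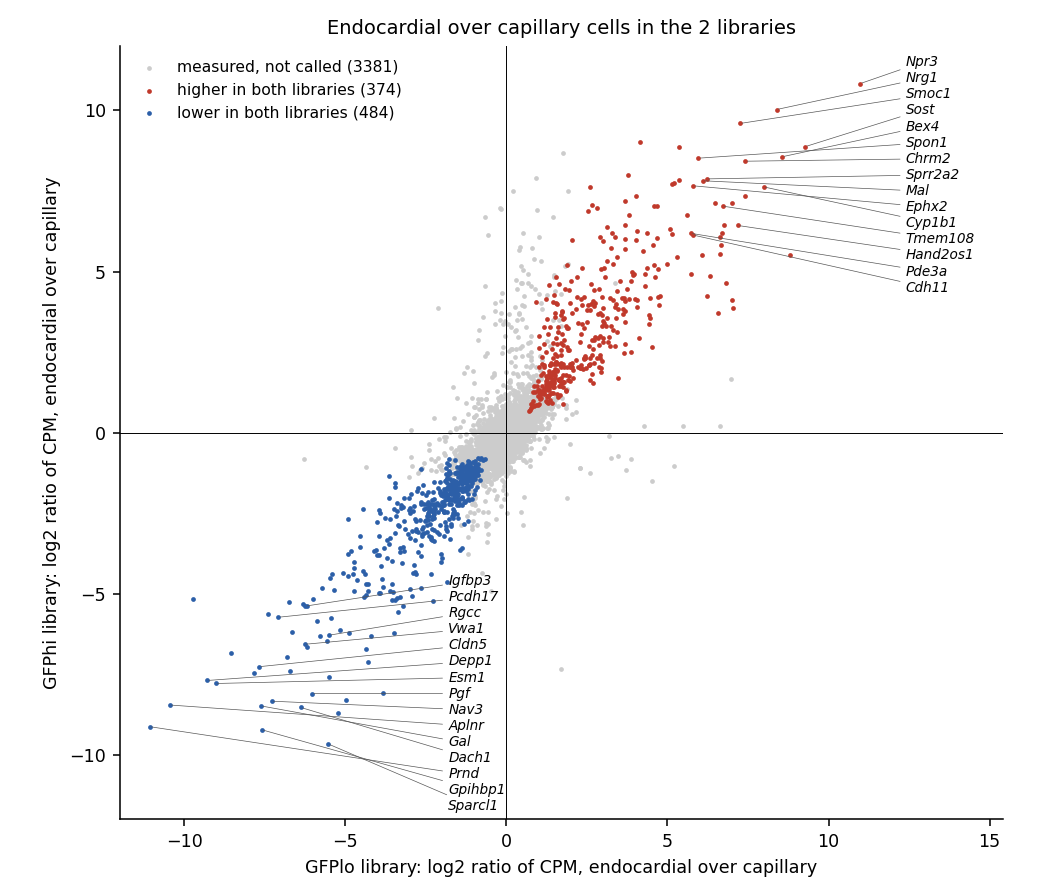
Each of the 4239 measured genes is a point, with the log2 ratio of endocardial over capillary CPM in GFPlo on the x axis and in GFPhi on the y axis, each with 0.5 added to the counts. Red marks the 374 genes called higher in both libraries, blue the 484 called lower, and the 15 leading genes of each direction are named. Npr3 has the highest ratio in both libraries and Prnd the lowest in GFPlo.

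The 10 marked GFPhi cells hold a large part of the GFPhi UMIs, so GFPhi levels of genes they lack were about 1.5 times higher when the marked cells of both classes were left out. Smoc1 then stood at 547 CPM in GFPhi and 603 CPM in GFPlo members, Chrm2 at 243 and 290 CPM and Ephx2 at 428 and 468 CPM. Cdh11 was 114-fold (48.4 to 354) and 92.9-fold (42.6 to 254) above capillary cells, where 1 marked cell of GFPhi and 2 of GFPlo were left out too. Tmem108 was 234-fold and 139-fold, and Hand2os1 185-fold and 176-fold. Vwf was 26.6-fold (19.4 to 37.5) and 6.57-fold, and Bmx 117-fold and 23.7-fold.

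The genes lowest in members included the 4 capillary genes of the rule. Gpihbp1, which holds lipoprotein lipase on capillary walls, had 1 UMI in GFPhi members and 9 in GFPlo members, against 971 and 661 CPM in capillary cells, and was used by the rule. Prnd, a prion-like protein, and Aplnr, the apelin receptor, both rule genes, had 0 UMIs in members of either library. Rbp7, a retinol-binding protein and the last capillary rule gene, stood at 0 and 2.53 CPM in members, against 227 and 100.2 CPM. Among genes outside the rule, Sparcl1, a matrix-associated protein, stood at 2.17 CPM in GFPhi and 34.01 CPM in GFPlo members, against 2196 and 1580 CPM in capillary cells. Cldn5, the tight-junction claudin of endothelium, had 1 and 3 UMIs in members, against 250 and 258 CPM in capillary cells and 845 and 805 CPM in lymphatic cells. Rgcc, a cell cycle regulator, stood at 4.34 and 6.15 CPM in members, against 380 and 284 CPM. Esm1 and Depp1 had 0 UMIs in members of both libraries, and Igfbp3, which binds insulin-like growth factors, stood at 14.1 and 9.41 CPM in members, against 611 and 721 CPM, and at 1.64 and 7.14 CPM in members without the marked cells. Pgf, placental growth factor, Nav3, Dach1, Vwa1, Pcdh17 and Gal completed the 15 lowest.

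Transcription factors and other genes listed for endocardium, which the rule did not use, were higher in members in every measured case. All 14 measured genes of that list were called higher, against 8.82% of all measured genes. This list, like the others here, was written with earlier results of these data known. It also holds Smoc1, Tmem108 and Cdh11, named above as leading genes, so the count is a description and not a test of the label. Gata6, a zinc finger factor of the heart, stood at 365 and 456 CPM in members, against 3.76 and 34.9 CPM in capillary cells. Hand2 stood at 194 and 204 CPM, against 5.63 and 13.1 CPM, and Gata4 at 48.9 and 59.3 CPM, against 3.76 and 2.18 CPM. Hmcn1, the matrix protein hemicentin, was among the most abundant at 2677 and 3662 CPM, against 152 and 260 CPM. Emcn and Plvap, a sialomucin and the protein of fenestral diaphragms, were 2.17-fold and 2.33-fold higher in GFPhi and 3.05-fold and 2.64-fold in GFPlo. The gate used Emcn in both classes. In GFPhi, leaving out the marked cells gave folds of 3.21 for Emcn, 3.43 for Plvap, 54.5 for Hand2 and, over 2 capillary UMIs, 237 for Gata6 (interval 64.9 to 1964). Nfatc1, a factor of valve endocardium, did not reach the count limits for a call, at 22.8 and 27.9 CPM in members and 31.9 and 39.2 CPM in capillary cells. Hapln1, a matrix link protein of developing endocardium, had 0 and 1 UMIs.

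The arterial list split, where 8.82% of all measured genes were higher and 11.4% lower. Among 14 measured, the rule gene Bmx, the connexin gene Gja4, Fbln5 and Edn1, which encodes endothelin, were higher in members. Gja5, Sox17, Dll4, Cxcl12, Unc5b and Depp1 were lower. Gja4 stood at 440 and 854 CPM in members, against 62.0 and 173 CPM in capillary cells. Gja5, the other connexin of large arteries, had 0 and 1 UMIs in members, against 26.3 and 91.5 CPM. Sox17, a factor of arterial identity, stood at 0 and 4.34 CPM in members, against 172 and 142 CPM. Of the venous list, 6 of 11 measured genes were higher and 2 lower. Nr2f2, the factor of venous identity, stood at 204 and 208 CPM in members, against 58.2 and 99.2 CPM, and Cpe, carboxypeptidase E, at 1166 and 1098 CPM, against 49.8 and 54.5 CPM. With the marked cells left out, Gja4 in GFPhi was 10.6-fold and Cpe 40.3-fold above capillary cells. Of the Notch list 0 of 6 were higher and 3 lower.

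Genes of sprouting vessels were lower in members than in these capillary cells throughout. All 15 measured genes of the angiogenic tip list were called lower, against 11.4% of measured genes. The capillary cells were chosen by Gpihbp1, Aplnr, Rbp7 and Prnd, and Aplnr is the receptor of Apln. This count therefore describes the 2 classes and is not a test. Kdr, the main receptor of vascular endothelial growth factor (VEGF), stood at 65.1 and 19.5 CPM in members, against 369 and 300 CPM in capillary cells, and at 21.3 and 16.1 CPM without the marked cells. Apln, the apelin ligand, stood at 3.26 and 0 CPM in members, against 137 and 151 CPM. Of the VEGF and angiopoietin list, 10 of 16 were lower and 2 higher. Aplnr, which the rule used, is among the lower ones. The higher ones were Nrp1, a VEGF and semaphorin co-receptor, at 792 and 1089 CPM, against 291 and 336 CPM, and Angpt1, a ligand of the Tie2 receptor, at 60.8 and 107 CPM, against 0.939 and 2.18 CPM. Of the hypoxia and glycolysis list 0 of 12 were higher and 6 lower, among them Pkm, pyruvate kinase, at 141 and 108 CPM, against 335 and 299 CPM.

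Of fatty acid handling genes 5 of 10 were lower and 1 higher, where 11.4% and 8.82% of all measured genes were. The lower ones include Gpihbp1, a capillary gene of the rule. Cd36, the fatty acid transporter, stood at 13.0 and 20.6 CPM in members, against 316 and 302 CPM in capillary cells. The fatty acid binding proteins went opposite ways. Fabp4 stood at 589 and 1182 CPM in members, against 8357 and 7419 CPM in capillary cells, and Fabp5 at 2704 and 3939 CPM, against 865 and 651 CPM. Over the capillary list, which shares these genes, 14 of 16 were lower, and the Aqp1 water channel was not called. That list holds the 4 capillary genes of the rule, so its count is partly set by the choice of cells.

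The BMP and transforming growth factor list leaned to members. Of 15 measured genes 8 were higher and 1 lower, where 8.82% of all measured genes were higher and 11.4% lower. Bmp6 stood at 413 and 572 CPM in members, against 13.1 and 35.96 CPM in capillary cells, and Bmp4 at 164 CPM in both, against 16.9 and 43.6 CPM, whereas Bmp2 stood at 1.09 and 3.62 CPM, against 67.6 and 34.9 CPM. The inhibitory factors Smad6 and Smad7 and the target genes Id2 and Id3 were higher. Id2 stood at 1578 and 2398 CPM in members, 29.0-fold and 24.7-fold above capillary cells. Eng, a co-receptor, stood at 962 and 1255 CPM, against 275 and 349 CPM. Of the Wnt list the 2 of 8 that were higher were Sost, a rule gene, and Sfrp1, another secreted inhibitor, at 176 and 208 CPM, against 4.70 and 40.3 CPM. Sfrp1 without the marked cells stood at 248 and 215 CPM, against 1.93 and 41.6 CPM.

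**Figure D4:**
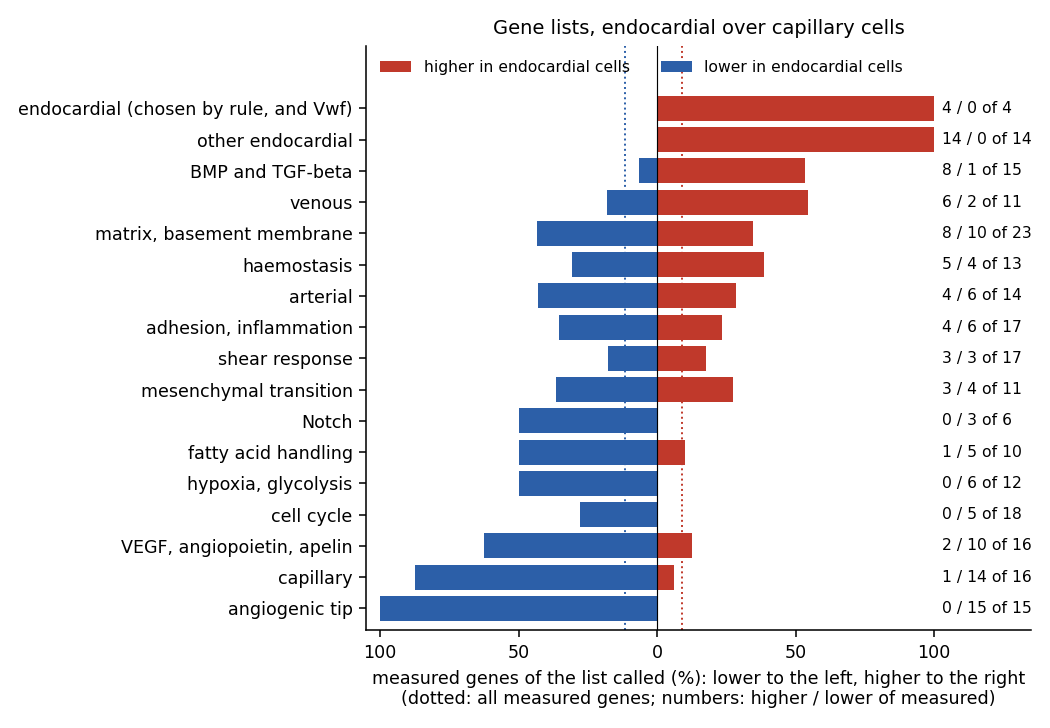
For each gene list the bars give the percentage of its measured genes called higher (red, to the right) or lower (blue, to the left) in endocardial over capillary cells in both libraries, with the counts at the right edge. Dotted lines mark the 8.82% and 11.4% of all measured genes. The other endocardial list has 14 of 14 higher and the angiogenic tip list 15 of 15 lower. The endocardial list at the top, and parts of the capillary, arterial, fatty acid handling and VEGF lists, hold genes of the rule.

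Genes of blood clotting and adhesion split too. Against 8.82% higher and 11.4% lower over all measured genes, 5 of 13 haemostasis genes were higher and 4 lower. Procr, the protein C receptor, stood at 181 and 242 CPM in members, against 58.2 and 77.4 CPM in capillary cells, and Tfpi, the tissue factor inhibitor, at 130 and 153 CPM, against 58.2 and 47.9 CPM. Of 17 adhesion and inflammation genes 4 were higher, Vcam1, Cxcl16, Csf1 and Ackr3, and 6 lower, Sele, Icam2, Cxcl2, Cxcl9, Cxcl12 and Ccl2. Sele, the selectin that captures rolling leukocytes, stood at 17.4 and 14.8 CPM, against 113 and 204 CPM. Of 18 dissociation genes only Socs3 was higher and 0 were lower. Of the interferon and antigen lists, 2 of 13 interferon genes and 1 of 9 class I genes were lower, shares near the 11.4% over all genes, and 0 of 4 class II genes were called.

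Of 23 measured matrix genes, 10 were lower in members, among them Col4a1 at 158 and 157 CPM in members, against 2356 and 2044 CPM in capillary cells, Col4a2, the laminins Lama4, Lamb1 and Lamc1, Nid2, Hspg2, Col15a1 and Col18a1. The 8 that were higher were Mgp, Bgn, Dcn, Eln, Vcan, Postn, Fn1 and Col4a5. Over all measured genes 8.82% were higher and 11.4% lower. Mgp, an inhibitor of calcification, reached 12080 and 10585 CPM in members, against 463 and 2657 CPM.

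Fibroblasts make the same interstitial genes and were the main cell type of the GFPlo library, with 6950 cells against 482 in GFPhi, so 3 genes are set beside their levels in other cells. These genes and the imprinted genes below were chosen after their values were seen. Without the marked cells, Dcn, the collagen-binding proteoglycan decorin, stood at 2457 CPM in GFPhi and 2576 CPM in GFPlo members, a ratio of 0.954 (0.901 to 1.01). This gene was detected in 107 of 114 and 596 of 640 members. The same gene stood at 10.6 CPM in GFPhi and 664 CPM in GFPlo capillary cells, and at 65.02 and 188 CPM in macrophages. Lum, lumican, stood at 655 and 703 CPM in members, a ratio of 0.932 (0.834 to 1.04), against 2.89 and 114.4 CPM in capillary cells and 9.55 and 62.8 CPM in macrophages. Col1a1, the main fibroblast collagen, stood at 113 and 417 CPM in members, a ratio of 0.272 (0.210 to 0.347), at 26.0 and 377 CPM in capillary cells and at 108 and 433 CPM in macrophages. Col1a1 thus stood in GFPlo members at about the level of GFPlo capillary cells and macrophages, while Dcn and Lum stood above both in either library. For the other higher matrix genes, with the marked cells also left out, the ratio of GFPhi over GFPlo members was 0.873 (0.848 to 0.898) for Mgp and 0.851 (0.785 to 0.921) for Bgn. It was 0.746 (0.689 to 0.808) for Eln, 0.733 (0.610 to 0.874) for Vcan and 0.684 (0.569 to 0.819) for Postn, and 0.557 (0.511 to 0.607) for Col3a1. These intervals lie below 1, while those of Dcn and Lum reach it. Over all members the ratio was 1.16 for Dcn, 1.28 for Col1a1, 1.14 for Mgp, 0.641 for Lum and 0.969 for Col3a1, so Dcn, Col1a1 and Mgp change direction with the marked cells. The part of free fibroblast RNA in the Dcn and Lum levels of the members was not tested beyond these values. The gates limit collagen transcripts, so Col1a1 and Col3a1 are bounded by the choice of cells.

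Few members were cycling. A cell counted as cycling with at least 3 of 10 mitotic genes detected. This held for 3 of 124 GFPhi members (2.42%, interval 0.502% to 6.91%) and 25 of 650 GFPlo members (3.85%, 2.50% to 5.63%), against 24 of 80 (30%) and 15 of 137 (10.9%) capillary cells. Capillary cells were deeper, with medians of 10982.5 and 5001 UMIs. With every cell thinned to 2000 UMIs, which left 96 and 483 members and 60 and 94 capillary cells, the shares were 2.08% and 2.90% of members, against 15.0% and 9.57% of capillary cells. Free RNA can add to such calls. Of 18 measured cell cycle genes 5 were lower in members and 0 higher, where 11.4% and 8.82% of all measured genes were. Ube2c, among the lower, stood at 26.1 and 31.8 CPM, against 315 and 82.8 CPM in capillary cells.

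Members took a smaller share of the blood endothelial cells in GFPhi than in GFPlo. They were 124 of 274 such cells in GFPhi (45.3%, interval 39.3% to 51.4%) and 650 of 1017 in GFPlo (63.9%, 60.9% to 66.9%). They were 114 of 230 (49.6%) and 640 of 971 (65.9%) without the marked cells, and with cells thinned to 2000 UMIs 96 of 197 (48.7%) and 483 of 721 (67.0%). Capillary cells were 29.2% of the blood endothelial cells in GFPhi and 13.5% in GFPlo, and 70 and 230 cells met neither rule. Of all kept cells, members were 1.22% in GFPhi and 5.44% in GFPlo, a share that the 7593 macrophages of GFPhi and 6950 fibroblasts of GFPlo also set. The sort defines the libraries, and sort and library cannot be told apart.

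C1qc, a macrophage complement gene, led the genes higher in GFPhi members with and without the marked cells, and the plasma cell gene Igha led the lower ones. Over all members 196 of 3454 measured genes (5.67%) were called higher and 52 (1.51%) lower in GFPhi over GFPlo, by the same 1.5-fold rule on 1 ratio. All 10 measured genes of the mesothelial list were called higher. Muc16, a mucin of mesothelium, stood at 145 CPM in GFPhi and 10.5 CPM in GFPlo members. Mt2, a metallothionein, stood at 1130 and 78.1 CPM, and Cst9 rested on 98 of its 104 GFPhi UMIs in 1 cell. Without the marked cells 16 of 3365 measured genes (0.475%) were higher and 29 (0.862%) lower, with 9 and 23 of them also called over all members. Kdr, Hpgd, Ndrg1, Pdgfd, Prr15 and Slco2a1, the 6 of 306 endothelial-enriched genes (1.96%) higher over all members, were not called without them. Endothelial-enriched means at least 2-fold higher in blood endothelial cells than in all cells outside the gates in both libraries. Of such genes 11 (3.59%) were lower over all members.

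Of the 16 genes that were higher without the marked cells, the leading ones were macrophage genes. C1qc had 61 UMIs in GFPhi and 2 in GFPlo members, C1qb 62 and 6, and Lyz2, which encodes lysozyme, 205 and 33. Over all members the ratios were 108 for C1qc, 40.5 for C1qb and 22.0 for Lyz2. Their ratios of 133, 45.2 and 27.2 without the marked cells stood beside ratios of 355, 317 and 147 in the cells outside the endothelial gates, where macrophages make up most of GFPhi. The gate limits C1q in members. Ctss, Lgals3, Wfdc17 and Ccl4 showed the same order, lower ratios in members than outside. Ccl2, a monocyte chemokine, stood at 54.2 CPM in GFPhi and 16.1 CPM in GFPlo members, 3.35-fold (2.06 to 5.40), beside 2.33-fold outside and 3.39-fold in capillary cells. It came from 16 of 114 and 27 of 640 cells, with 17 of its 33 GFPhi UMIs in 1 cell. Among the 29 lower genes, Mfap4, Sfrp2, Gsn, Mfap5, Serpinf1 and Ogn are fibroblast genes, with ratios of 0.0463 to 0.162 in members and 0.104 to 0.128 outside. Igha and Jchain, plasma cell genes, rested on 744 of 750 and 460 of 467 UMIs in 1 GFPlo cell. The part of free RNA in these genes was not tested.

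Among 368 endothelial-enriched genes measured without the marked cells, 2 were higher and 2 lower in GFPhi (0.543% each). Ly6c1 was higher, with 37 of its 38 GFPhi UMIs in 1 cell. Cdh13, T-cadherin, an adiponectin receptor, stood at 481 CPM in GFPhi and 267 CPM in GFPlo members, a ratio of 1.80 (1.57 to 2.07), and was seen in 63 of 114 and 213 of 640 cells. Over all members its ratio was 1.25 (1.09 to 1.43). In capillary cells, where 80 of 3577 measured genes (2.24%) were higher and 66 (1.85%) lower in GFPhi, its ratio was 0.989 (0.887 to 1.10), and outside the gates 0.421. Without the marked cells the ratio was 1.08 (0.998 to 1.17) for Npr3, 1.16 (1.10 to 1.21) for Nrg1, 0.95 (0.812 to 1.11) for Sost and 1.47 (1.30 to 1.66) for Bmx, and 1.33 (1.22 to 1.46) for Vwf. Over all members Npr3 was at 0.775, Nrg1 at 0.791, Sost at 0.650, Bmx at 1.00 and Vwf at 0.913, so Npr3, Nrg1 and Vwf change direction with the marked cells.

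The imprinted growth genes Igf2 and H19 were the 2 that were lower. Igf2, a growth factor gene, lies at chr7:142650766-142666816 of mm10, and H19, a noncoding RNA, at chr7:142575529-142578143, both on the minus strand. Igf2 stood at 1136 CPM in GFPhi and 1906 CPM in GFPlo members, a ratio of 0.596 (0.550 to 0.645), and H19 at 463 and 812 CPM, a ratio of 0.570 (0.502 to 0.645), here without the marked cells. Over all members the ratios were 0.408 (0.376 to 0.442) for Igf2 and 0.391 (0.344 to 0.443) for H19. Both were low in capillary cells, Igf2 at 25.1 and 35.8 CPM and H19 at 21.2 and 5.78 CPM, from 22 and 5 UMIs. In fibroblasts Igf2 stood at 1.93 CPM in GFPhi and 4.52 CPM in GFPlo, and H19 at 41.8 and 49.1 CPM. Igf2 was detected in 43 of 114 GFPhi members (37.7%) and 350 of 640 GFPlo members (54.7%), and in 32.3% and 55.2% with cells thinned to 2000 UMIs. Igf2 and H19 were seen together in 28.1% of GFPhi and 40.5% of GFPlo members, and 47.4% and 33.4% had neither. Per cell Igf2 ranged from 0 to 105.4 UMIs per 10000 in GFPhi and from 0 to 226 in GFPlo. The other imprinted genes read are given as values. Cdkn1c, a cell cycle inhibitor, had a ratio of 0.691 (0.565 to 0.839), Plagl1 of 0.848 (0.744 to 0.963), Grb10 of 0.811 (0.631 to 1.03), Peg3 of 0.682 (0.383 to 1.14), Meg3 of 1.04 and Mest of 1.31 (1.09 to 1.56). Outside the endothelial gates the ratio was 0.212 for Igf2 and 0.159 for H19.

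**Figure D5:**
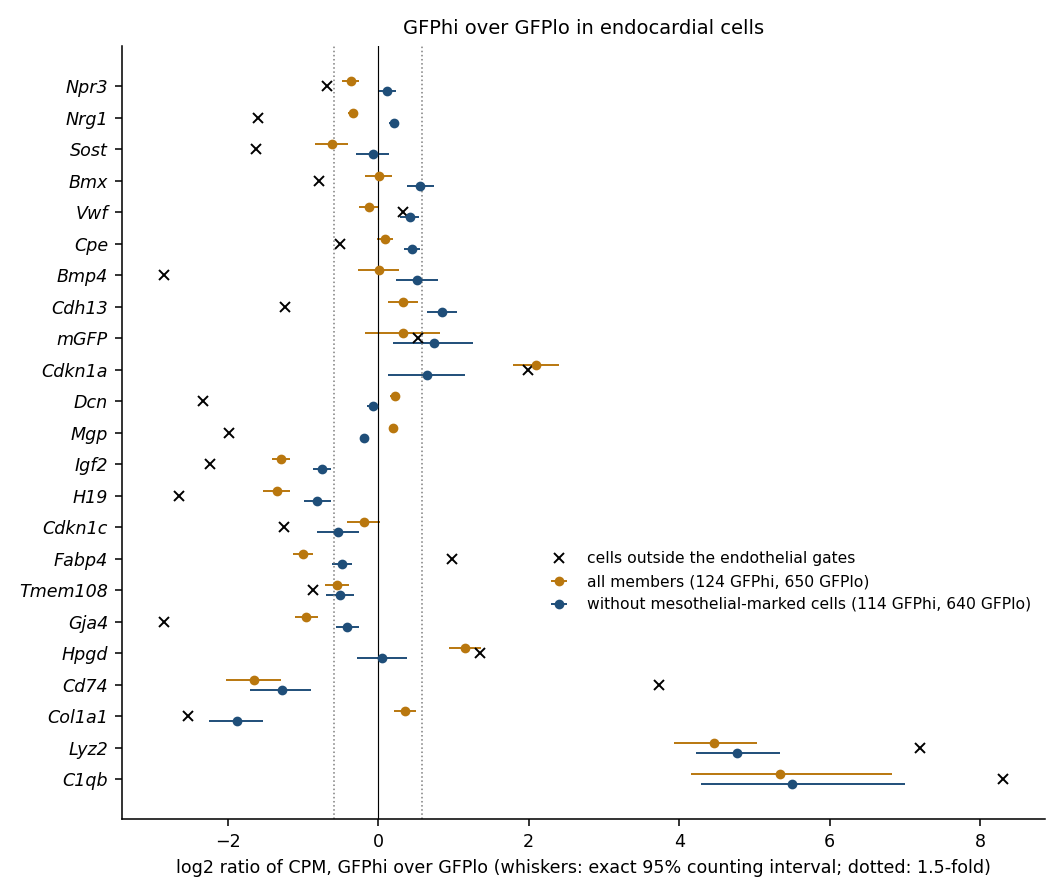
The x axis is the log2 ratio of CPM, GFPhi over GFPlo, for named genes. Orange points are all 124 GFPhi and 650 GFPlo members, blue points the 114 and 640 members without mesothelial-marked cells, whiskers are exact 95% counting intervals, crosses are cells outside the endothelial gates and dotted lines mark 1.5-fold. Igf2 and H19 lie left of the lines with and without the marked cells, Cdh13 lies right of them only without, and C1qb and Lyz2 lie far to the right.

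The reporter was read in a minority of members, and p16 itself in few. The mGFP feature had 43 UMIs in the GFPhi and 113 in the GFPlo members without the marked cells, a ratio of 1.66 (1.14 to 2.38), and of 1.26 (0.881 to 1.77) over all members. It was detected in 25.4% of GFPhi and 15.2% of GFPlo members, and in 12.5% and 9.17% after thinning. The ratio was 1.09 in capillary cells and 1.43 outside the gates, and no label states whether the feature also counts the reporter before recombination. Lymphatic cells had mGFP at 246 CPM in GFPhi and 43.8 CPM in GFPlo, against 53.2 and 42.3 CPM in all members. CreERT2 had 0 UMIs in members of either library. Over all members Cdkn2a, which encodes p16, had 1 UMI in GFPhi members and 4 in GFPlo members, so no difference was detectable at this depth, and 1 and 2 UMIs without the marked cells. Cdkn2b had 1 and 4 UMIs over all members and 0 and 4 without the marked cells. Cdkn1a, which encodes the cell cycle inhibitor p21, stood at 236 and 55.3 CPM over all members, 4.26-fold (3.44 to 5.27). Its ratio was 2.63 (2.03 to 3.44) in capillary cells and 4.01 outside the gates. Without the marked cells Cdkn1a stood at 75.5 and 48.1 CPM in members, 1.57-fold (1.10 to 2.22), with 26 of the 46 GFPhi UMIs in 1 cell. Its ratios were then 2.53 in capillary cells and 3.97 outside the gates. Ccl8, the chemokine named in the title of the study, had 4 UMIs in 4 GFPhi members and 0 in GFPlo members, with or without the marked cells. GFPhi macrophages had it at 374 CPM.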

How the data were processed

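Single-cell RNA was measured in 2 libraries, GFPhi and GFPlo, 1 per group. The deposited matrices hold whole UMI counts per gene and cell barcode, made by the authors on mm10, per the submitters' processing notes. No source used here names the aligner or counter, and the labels name a SeekOne droplet 3′ kit in one place and 10x Genomics in another. Whether counting used strand is not stated, so Hand2os1 is uncertain beside its neighbour, and Sprr2a2 is uncertain through its close copies.

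Cells with at least 300 genes, 500 UMIs and at most 20% mitochondrial UMIs were kept, 10125 of 10430 and 11959 of 12344 barcodes. No doublet caller was run, and an alternative left out cells over 25000 UMIs. Collagen (Col1a1, Col1a2 and Col3a1) had to be under 100 and C1q under 30 UMIs per 10000. Counts were summed over the cells of a class and library and divided by their total (CPM). Ratios have exact conditional 95% intervals, shares exact Clopper-Pearson and levels exact Poisson intervals. A fold against 0 counts is a lower bound from a floor of 3 counts per library. A gene was measured with at least 50 CPM in 1 of the sums compared and 20 UMIs in all. With 1 library per group no test was possible.

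The named genes were the 15 with the largest nearer bound in each direction for endocardial over capillary cells, the 10 leading genes of all and the 12 leading endothelial-enriched genes between libraries, and genes of the 37 lists that were called or always reported. The members and lists were chosen with earlier results of these data known. Calculations used Python 3.11.15, numpy 2.4.6, scipy 1.17.1 and pandas 2.3.3 and were tested on simulated data. Gene positions come from GENCODE on mm10 and promoters from RefSeq on GRCm38.p6. Alternatives were a minimum of 3 UMIs of the rule genes, thinning each cell to 2000 UMIs, tighter collagen and C1q limits, a mitochondrial limit of 10%, the rule without Bmx, other scalings and no CPM minimum.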

Additional observations from a re-analysis of the deposited data

Results flagged for a closer look

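The only result set apart was Cd74, the invariant chain of class II antigen presentation, whose ratio of GFPhi over GFPlo ran in opposite directions in 2 endothelial classes. Without mesothelial-marked cells it had 58 UMIs in GFPhi and 619 UMIs in GFPlo endocardial cells, at 95.2 and 232 CPM, a ratio of 0.41. In capillary cells with the same exclusion the ratio was 15.0. Outside the endothelial gates it was 13.4, in the setting without that exclusion. Cd74 was seen in 32.5% of GFPhi and 8.75% of GFPlo endocardial cells, with at most 4 UMIs in a GFPhi cell and 128 UMIs in 1 GFPlo cell. The share of cells thus ran against the CPM, and no order is read from it. With 1 library per group the difference between the classes was not tested.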

How the results depend on the processing

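No paired analysis was possible because each group is 1 library, and leaving out a replicate could not be done for the same reason. The direction of the endocardial over capillary comparison and its 14 of 14 and 15 of 15 list counts rest on these 2 libraries. The counts of genes between libraries depended on the choice of members. Genes higher and lower in GFPhi over GFPlo numbered 12 and 13 with cells thinned to 2000 UMIs, 12 and 22 with collagen and C1q limits of 30 and 10, 21 and 29 without cells over 25000 UMIs, 16 and 29 without mesothelial-marked cells (chosen after seeing the data), and 369 and 108 with no CPM minimum, against 196 and 52. Endothelial-enriched genes numbered 3 higher and 6 lower with at least 3 UMIs of the rule genes, 1 and 1 thinned, 1 and 3 with the tighter limits, 2 and 2 without the deep cells, 2 and 2 without the marked cells, and 16 and 19 with no CPM minimum, against 6 and 11. Thinning gave 214 genes higher and 263 lower in endocardial over capillary cells and a GFPlo member share of 67.0%, with fewer UMIs by construction. At 3 UMIs that share was 59.9%. Members with Bmx as only rule gene were 0% in GFPhi and 0.328% in GFPlo at 3 UMIs, and 0% in GFPlo when thinned. On the log2 scale the GFPhi over GFPlo ratio of called genes changed direction for Ndrg1 (-0.21, thinned), Bst1 (-0.57), Kdr (-0.017) and Hpgd (-0.041) with the tighter limits, Cst9 (-0.89) without the deep cells, and Pdpn (-1.12) and Sema3d (-0.19) without the marked cells. The cause was not tested. Weighting cells equally (mean over cells) moved 49 of 100 log2 ratios beyond their intervals and left 51 within, and the GFPhi over GFPlo ratio of 4 genes not called took the other sign, to above 1 for Vwf, Ctla2a and Calcrl and to below 1 for Ogn. Counts and shares stayed within these limits under a mitochondrial limit of 10%, median-of-ratios scaling and the rule without Bmx. With 124 GFPhi members, genes of few UMIs cannot be compared between libraries.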
